A study of Sus scrofa with 2 samples.

Results

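The extracellular proteases and protease inhibitors of the pig endometrium, the inner lining of the uterus, are described here as 10 genes. They are the meprins MEP1B and MEP1A, the matrix metalloproteinases (MMPs) MMP2, MMP9 and MMP14, the tissue inhibitors of metalloproteinases (TIMPs) TIMP1, TIMP2 and TIMP3, and the plasminogen activators PLAU and PLAT. The 10 genes were chosen by symbol with their expression in these libraries already known, so their levels and differences are given as a description and without a test. They are 10 of the 11071 genes whose RefSeq accession could be matched to a symbol, and each had 1 transcript row. Endometrium was taken from 2 Yorkshire pigs from a single commercial herd on day 18 of pregnancy (YK18), with 1 RNA-seq library per pig (replicate 1 and replicate 2). The pigs had been artificially inseminated and the uterine horns were flushed with saline before sampling, and no agent or genetic change was applied. The tissue was sequenced whole, so a smaller number of cells of a type and less RNA per cell cannot be told apart. There was 1 condition. With 1 library per pig, a difference between the libraries holds the spread between 2 pigs together with that of tissue sampling and library preparation. These cannot be told apart.

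Meprins and MMPs are zinc-dependent proteases that cut proteins outside the cell. Meprin β, the product of MEP1B, is anchored in the cell membrane and is best known from the brush borders of intestine and kidney. It trims procollagens and sheds proteins from cell surfaces, while meprin α, from MEP1A, is mostly secreted. MMP2 and MMP9 are the gelatinases, which degrade denatured collagen and basement membrane collagen, and MMP14 is a membrane-bound MMP that activates pro-MMP2 with the help of TIMP2. TIMPs bind the active sites of MMPs and block them. PLAU (urokinase) and PLAT (tissue plasminogen activator) turn plasminogen into plasmin, a serine protease. In the pig the conceptus attaches to the uterine surface epithelium without invading it, and these enzymes act in the remodelling of the endometrial matrix.

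Expression is given as RPKM (reads per kilobase of transcript per 1000000 reads). The libraries held 7466979 reads in replicate 1 and 7023108 in replicate 2, as recovered from the steps between low RPKM values. For each gene the reads were recovered at the smallest transcript length at which both libraries gave whole numbers. A factor shared by both read counts and the length is lost, so a true read number can be a whole multiple of the one given, and ratios of reads between genes can be off by a whole factor. Intervals below are 95% exact binomial (Clopper-Pearson) intervals of these reads and cover counting error only. The lengths were short, with a median of 234 nt over matched transcripts with a mean of at least 20 reads. EEF1A1 and FTL, which are needed in all cells, were listed at 0 in both libraries, so a gene at 0 is described only as listed at 0. Where a pair of values is given, that of replicate 1 stands first. Differences between the libraries are given as log2(RPKM + 1) of replicate 2 minus that of replicate 1. Over the 6476 genes with a mean of at least 1 RPKM, the median difference was 0.07 with an SD of 0.67.

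Most epithelial markers, and stromal LUM and DCN, were present. The epithelial marker EPCAM was at 5106 RPKM in replicate 1 and 5128 in replicate 2, and CDH1 at 4834 and 3961 RPKM. KRT18 was at 1626 and 1064 RPKM and CLDN4 at 136.8 and 169.3 RPKM, and KRT8 was listed at 0. KRT19 was at 267.8 and 522.1 RPKM. Its recovered reads, 6 and 11, belong to a smallest length of 3 nt, so its true reads can be many times more. Of the stromal markers, LUM was at 2122 and 1224 RPKM and DCN at 211.0 and 272.5 RPKM, VIM was at 19.5 and 24.9 RPKM, and COL1A2 had 1 read and 0 reads. The endothelial list, led by KDR and VWF, summed to 6408 and 6074 RPKM. The smooth muscle list summed to 115.4 and 105.0 RPKM, nearly all of it from DES at 111.3 and 101.2 RPKM. TAGLN had 8 and 7 reads, and ACTA2 and CNN1 were listed at 0. The libraries differed in markers of other cells. The 7 skeletal muscle genes summed to 460.8 RPKM in replicate 1 against 14.9 in replicate 2. Of these 6 had a mean of at least 1 RPKM, led by CKM. All 6 were at least 2-fold higher in replicate 1, against 205 of the 6476 genes. The trophectoderm list summed to 700.6 and 103.4 RPKM, most of it from IFNG at 681.6 and 89.1 RPKM. TFAP2C was at 17.5 and 14.1 RPKM, and the interval of its ratio, 0.527 to 1.21, held 1. CDX2 had 7 reads and 1 read, and GATA3 and ELF5 were listed at 0. The gap in this sum was thus nearly all from IFNG. The 4 leukocyte markers with a row summed to 758.2 and 1230 RPKM. All 4 were higher in replicate 2, against 58.0% of the 6476 genes, and the interval of the CD14 ratio, 0.878 to 1.60, held 1.

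MEP1B (XM_003127883.3) had the highest level of the 10 genes in both libraries. It was at 20632 RPKM in replicate 1 against 32706 in replicate 2, a mean of 26669 ± 8538 RPKM (SD, n = 2 pigs). Both values lay far above those of each of the other members of the group, and replicate 2 was the higher. Among all 43699 listed transcripts MEP1B stood at place 6 by RPKM in replicate 1 and at place 3 in replicate 2. By recovered reads it stood at places 6 and 2, with 34201 and 50993 reads at a length of 222 nt. These places are approximate, since a whole factor can be lost from the reads of each transcript. At these read numbers MEP1B alone took 0.458% (0.453 to 0.463) of the reads of replicate 1 and 0.726% (0.720 to 0.732) of those of replicate 2. Its level was 1.59 times higher in replicate 2 (1.56 to 1.61), a log2 difference of 0.66, and 79.6% of the genes with a mean of at least 1 RPKM differed by less. Among the 2575 genes with a mean of at least 100 RPKM, 93.7% differed by less.

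The other meprin gene was near the bottom of the range. MEP1A (XM_001928416.3) was at 4.06 RPKM in replicate 1 against 6.47 in replicate 2, from 2 and 3 reads at a length of 66 nt. MEP1B was thus 5084 and 5053 times MEP1A in RPKM, and 17100.5 and 16997.7 times in recovered reads. With so few MEP1A reads the size of these ratios is known only roughly. At the few recovered reads of MEP1A, its ratio between the libraries had an interval of 0.183 to 19.1. Among the 6985 genes above 0 in both libraries MEP1A had percentiles of 25.7 and 29.7, and MEP1B of 99.93 and 99.96.

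**Figure D1:**
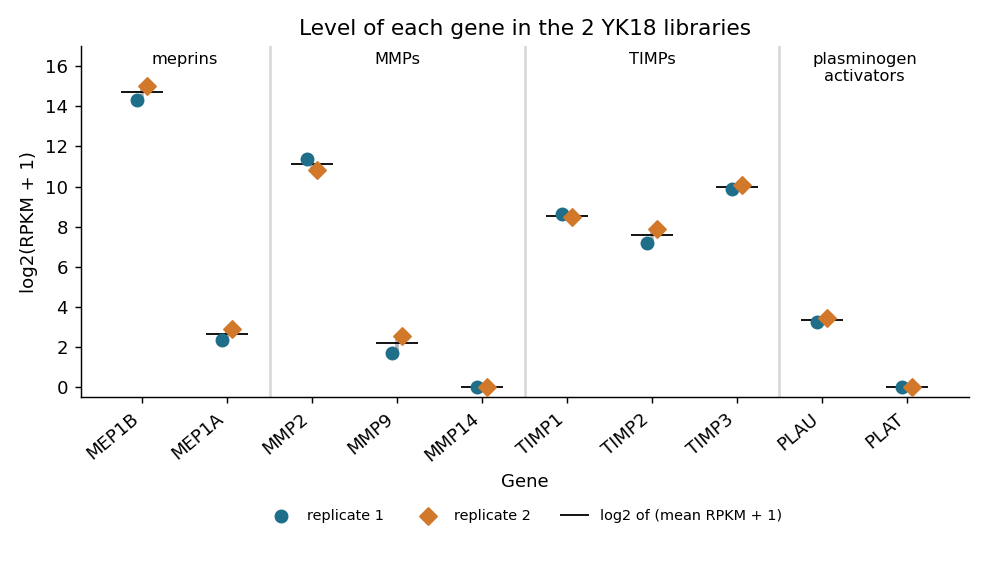
Level of each of the 10 genes as log2(RPKM + 1) on the vertical axis, by gene on the horizontal axis, with a circle for replicate 1, a diamond for replicate 2 and a bar at the log2 of the mean plus 1. MEP1B stands highest in both libraries, MMP2 and TIMP3 follow, MEP1A, MMP9 and PLAU stand below 10 RPKM, and MMP14 and PLAT are listed at 0.

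Of the MMPs, MMP2 was the abundant one. MMP2 (NM_214192.1) was at 2642 RPKM in replicate 1 against 1810 in replicate 2, a mean of 2226 ± 588 RPKM (SD, n = 2 pigs), from 4281 and 2759 reads. Its percentiles were 98.0 and 96.4. It was 1.46 times higher in replicate 1 (1.39 to 1.53), with a log2 difference of -0.55, so that MMP2 and MEP1B differed in opposite directions between the pigs. MEP1B was 7.81 times MMP2 in replicate 1 and 18.1 times in replicate 2. MMP9 (NM_001038004.1) was at 2.27 and 4.83 RPKM from 1 and 2 recovered reads at 59 nt. At these read numbers, which can be too low by a whole factor, the libraries cannot be ordered. The interval of its ratio ran from 0.111 to 125. MMP14 (NM_214239.1) was listed at 0 in both libraries, so the level of this activator of pro-MMP2 cannot be set beside that of MMP2.

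All 3 TIMPs were above 100 RPKM in both libraries. TIMP3 (XM_003126073.4), which is held in the extracellular matrix and also inhibits ADAM and ADAMTS proteases, was at 933.4 RPKM in replicate 1 against 1085 in replicate 2, a mean of 1009 ± 107 RPKM (SD, n = 2 pigs). TIMP1 (NM_213857.1), a secreted inhibitor that binds pro-MMP9, was at 392.4 and 357.5 RPKM, a mean of 374.9 ± 24.7 RPKM (SD, n = 2 pigs). TIMP2 (NM_001145985.1), the partner of pro-MMP2 and MMP14, was at 142.5 and 235.8 RPKM, a mean of 189.1 ± 66.0 RPKM (SD, n = 2 pigs). The order TIMP3, TIMP1, TIMP2 was the same in both libraries and no range of one TIMP overlapped that of another. TIMP3 held 63.6% of the summed TIMP RPKM in replicate 1 and 64.7% in replicate 2. The order was also that of the recovered reads, which were 6433 and 7035 for TIMP3 at 923 nt, 419 and 359 for TIMP1 at 143 nt, and 167 and 260 for TIMP2 at 157 nt.

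The TIMPs differed unequally between the pigs. TIMP2 was 1.66 times higher in replicate 2 (1.36 to 2.02), a log2 difference of 0.72. TIMP3 was 1.16 times higher in replicate 2 (1.12 to 1.20), a difference of 0.22. TIMP1 was 0.911 times its level in replicate 1 (0.789 to 1.05), and this interval holds 1, so no difference was detectable at this depth. As a share of the mean, the SD was 34.9% for TIMP2, 10.6% for TIMP3 and 6.59% for TIMP1, against 32.0% for MEP1B and 26.4% for MMP2. In the Sscrofa11.1 annotation TIMP1 lies within the span of SYN1, which was listed at 0 here, TIMP2 overlaps CEP295NL and TIMP3 overlaps SYN3. The strand setting of the read counting is not given in the sources used here, so reads of such overlapping genes cannot be told apart.

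The plasminogen activators were low. PLAU (NM_213945.1) was at 8.68 RPKM in replicate 1 against 9.89 in replicate 2, a mean of 9.28 ± 0.854 RPKM (SD, n = 2 pigs), from 14 and 15 reads at 216 nt. Its ratio between the libraries was 1.14 (0.513 to 2.55), so no difference was detectable. PLAU overlaps CAMK2G in the annotation, which was at 1.55 and 6.58 RPKM. PLAT (NM_214054.1) was listed at 0 in both libraries.

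Set beside all genes, 5 of the 10 genes reached 10 RPKM in both libraries, against 38.8% of all matched genes, and 2 were listed at 0 in both, against 26.6%. Of the 8 genes with a mean of at least 1 RPKM, none differed at least 2-fold between the pigs on the log2(RPKM + 1) scale, against 10.7% of the 6476 genes, and 6 were higher in replicate 2, against 58.0%. MMP9 came nearest to 2-fold, at a log2 difference of 0.83, and TIMP2 next at 0.72. With a pseudocount of 0.1 or 0.01 in place of 1, 1 gene passed 2-fold, and this was MMP9 with its 3 recovered reads in all.

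**Figure D2:**
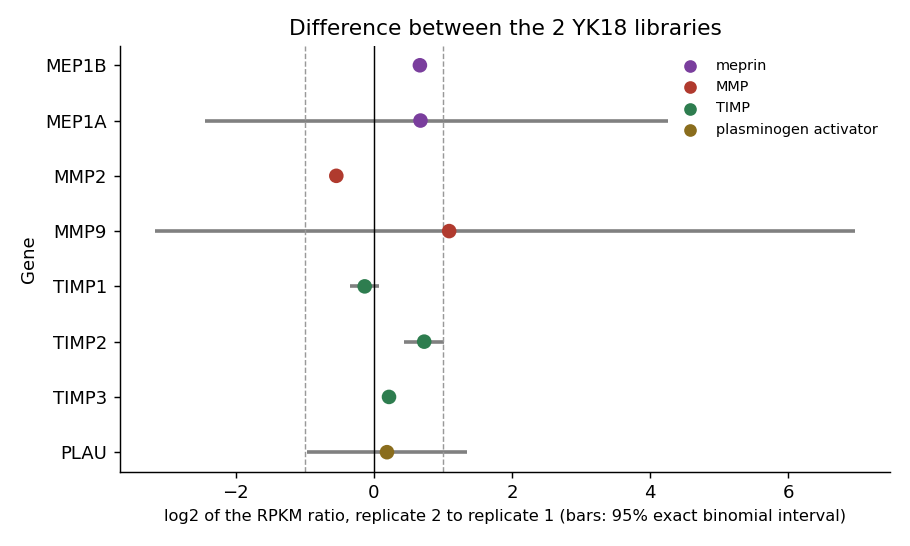
Difference between the libraries for the 8 genes above 0, with the log2 of the RPKM ratio of replicate 2 to replicate 1 on the horizontal axis and genes on the vertical axis. Points are ratios with no pseudocount, grey bars are 95% exact binomial intervals (narrower than the point for MEP1B, MMP2 and TIMP3) and dashed lines mark 2-fold. MEP1B, TIMP2 and TIMP3 lie to the right of 0 and MMP2 to the left with their intervals, and the intervals of MEP1A, MMP9, TIMP1 and PLAU include 0.

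Proteases and inhibitors were then compared within each library, where no scaling between libraries enters. The 7 protease genes summed to 23289 RPKM in replicate 1 against 34538 in replicate 2, and the 3 TIMPs to 1468 and 1679 RPKM. The ratio was 15.9 in replicate 1 and 20.6 in replicate 2, and 88.6% and 94.7% of the protease sum was MEP1B. TIMPs are inhibitors of MMPs and related enzymes and are not the known inhibitors of meprins, so the ratio without MEP1B is the closer one to enzyme and inhibitor pairs. It was 1.81 in replicate 1 and 1.09 in replicate 2 in RPKM, and 0.612 and 0.363 in recovered reads.

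For the MMPs alone the ratio to the TIMPs was 1.80 in replicate 1 and 1.08 in replicate 2, a mean of 1.44 ± 0.509 (SD, n = 2 pigs). MMP2 was 2.83 and 1.67 times TIMP3, 6.73 and 5.06 times TIMP1 and 18.5 and 7.68 times TIMP2. Each of these ratios was lower in replicate 2, where MMP2 was lower. The difference was 2.42-fold for MMP2 to TIMP2, 1.70-fold for MMP2 to TIMP3 and 1.33-fold for MMP2 to TIMP1. Which side was in excess depended on the lengths. Recovered reads do not settle it, since a whole factor can be lost for each gene. In recovered reads the MMPs were 0.610 and 0.361 times the TIMPs, because TIMP3 had 6433 and 7035 reads at 923 nt, against 4281 and 2759 reads at 217 nt for MMP2. The ratios of MMP2 to TIMP1, 10.2 and 7.69, and to TIMP2, 25.6 and 10.6, stayed above 1 in reads. For a pair of genes the fold between the pigs is the same on both scales by construction.

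**Figure D3:**
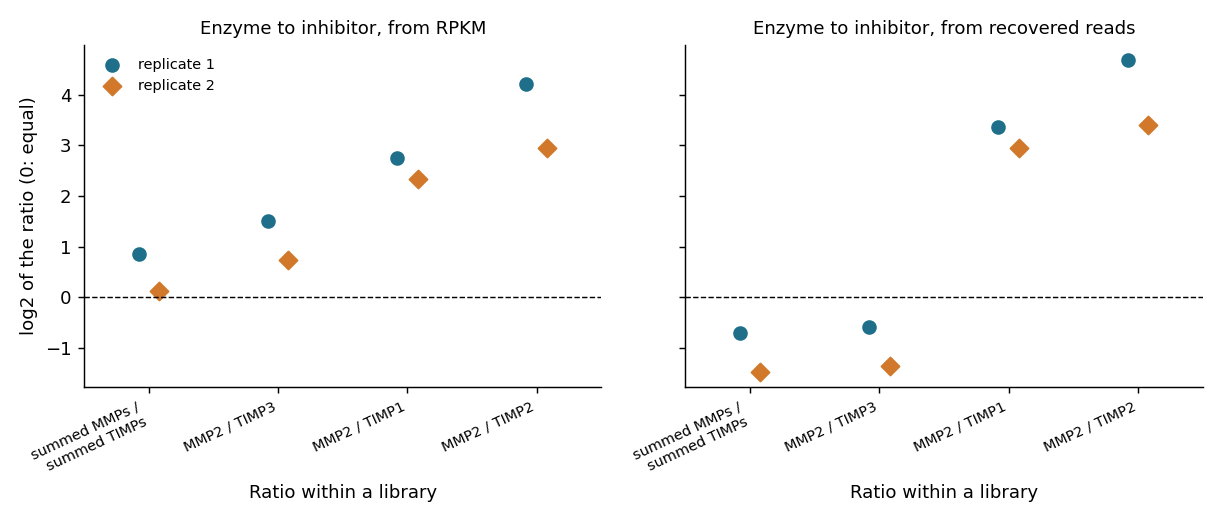
Ratios of MMPs to TIMPs within each library, as log2 on the vertical axis with the pairs on the horizontal axis, from RPKM on the left and from recovered reads on the right. Circles are replicate 1 and diamonds replicate 2. All 4 ratios are higher in replicate 1, by the same fold on both scales for single pairs by construction, and the summed ratio and MMP2 to TIMP3 lie above the line of equal levels in RPKM and below it in reads.

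The partners of the meprins spanned a wide range. ADAM10, which sheds meprin β from the membrane, was at 1941 RPKM in replicate 1 against 1742 in replicate 2, a ratio of 1.11 (1.04 to 1.20) toward replicate 1. Fetuin-A and fetuin-B are inhibitors of meprins. AHSG, the fetuin-A gene, was at 56.6 and 25.7 RPKM, 2.20 times higher in replicate 1 (1.51 to 3.26), and FETUB was at 11.3 and 7.08 RPKM from 17 and 10 reads. AHSG was thus higher in the pig with the lower MEP1B, as were 2717 of the 6476 genes. The ratio of FETUB in replicate 1 to replicate 2 had an interval of 0.691 to 3.91, which held 1. TMPRSS4, a serine protease of the cell surface, was at 155.1 and 173.0 RPKM. Of the 12 genes of this list 8 had a row and 4 reached a mean of 1 RPKM. Of the 4, 1 was at least 2-fold higher in replicate 1 and none in replicate 2, against 10.7% of all genes in either direction. The median difference of the 4 was -0.38, against 0.07 over all genes. The astacin BMP1, also a procollagen protease, had no row with a matched accession and was not analysed here.

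Genes of proteins that meprins are known to cut formed a further list. Of those with a row COL3A1 had the highest RPKM, at 67098 in replicate 1 against 42857 in replicate 2. It was 1.57 times higher in replicate 1 (1.54 to 1.59), while MEP1B was 1.59 times higher in replicate 2. COL3A1 was therefore 3.25 times MEP1B in RPKM in replicate 1 and 1.31 times in replicate 2. In recovered reads the order turned over, with 46595 for COL3A1 against 34201 for MEP1B in replicate 1 and 27992 against 50993 in replicate 2. A whole factor can be lost from the reads of either gene, so this order is not settled. The E-cadherin gene CDH1 was at 4834 and 3961 RPKM, and the laminin gene LAMC1 was at 2625 and 1847 RPKM. IL1B, whose product meprins can process, was at 3.20 and 9.54 RPKM from 5 and 14 reads. Of 21 genes on the list 15 had a row, 10 reached a mean of 1 RPKM and 3 were listed at 0 in both libraries. COL1A2, also on the list, had 1 read and 0 reads. IL1B was the 1 gene of the 10 at least 2-fold apart, against 10.7% of all genes. The median difference of the 10 was 0.00, against 0.07 over all genes.

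Meprin β is a brush border enzyme, so other brush border genes of gut and kidney were read as well. VIL1 was at 7.70 and 4.09 RPKM from 10 and 5 reads, FABP2 had 1 read and 0 reads, and ANPEP was listed at 0. DPP4, a peptidase of many epithelia and lymphocytes, was at 5996 RPKM in replicate 1 against 13065 in replicate 2, 2.18 times higher in replicate 2 (2.10 to 2.26), the same direction as MEP1B. The glucose transporter gene SLC5A1 was at 804.1 and 344.6 RPKM and went the other way. The list thus held both genes with few or no reads and genes with high levels.

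The other MMPs were all far below MMP2. Of 20 further MMP genes 12 had a row, 9 were above 0 in both libraries and 8 averaged 1 RPKM or more, with a median of 6.02 RPKM over the 8. Of the 8, 3 were at least 2-fold higher in replicate 2 and 1 in replicate 1, against 485 and 205 of the 6476 genes (10.7% in either direction), and their median difference was -0.11. The reads behind some of these genes were few. MMP8, the collagenase stored in neutrophils, was at 6.13 RPKM in replicate 1 against 56.2 in replicate 2, from 13 and 112 reads, 9.16 times higher in replicate 2 (5.14 to 17.7). MMP3 (stromelysin 1), which can activate other pro-MMPs, was at 1.63 and 9.55 RPKM from 2 and 11 reads. MMP12, the macrophage elastase, had 2 and 5 reads, and its interval of 0.435 to 27.9 holds 1. MMP25, an MMP of leukocyte membranes, was at 8.98 and 3.91 RPKM, 2.30 times higher in replicate 1 (1.02 to 5.67). MMP16 was at 19.3 and 15.9 RPKM and MMP11 at 13.6 and 12.4 RPKM, both close between the pigs. The leukocyte markers moved in the direction of MMP8. PTPRC, the pan-leukocyte marker CD45, was at 526.1 and 845.5 RPKM, ITGAM, of neutrophils and macrophages, at 149.8 and 238.9 RPKM, CD3E at 67.5 and 127.8 RPKM and CD14 at 14.8 and 17.6 RPKM. Their part in the difference of MMP8 was not tested.

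In the plasminogen system, the gene with the widest gap between the pigs was an inhibitor. SERPINB2, the gene of an inhibitor of urokinase (PAI-2), was at 20.3 and 238.5 RPKM from 35 and 387 reads, 11.8 times higher in replicate 2 (8.31 to 17.1). In replicate 1 it was thus within 3-fold of PLAU, and in replicate 2 it was 24.1 times PLAU. THBD, thrombomodulin, was at 9.96 and 16.5 RPKM, from 270 and 421 reads at 3630 nt. Plasminogen itself (PLG), the urokinase receptor gene PLAUR and SERPINE2 were listed at 0. Of the 10 genes 8 had a row and 4 averaged 1 RPKM or more, all 4 higher in replicate 2 with a median difference of 0.78. However, 1 of the 4 rested on 3 and 6 reads, and its interval of 0.454 to 13.1 holds 1. SERPINB2 was the 1 gene past 2-fold. Over all genes 58.0% were higher in replicate 2 and 10.7% were past 2-fold.

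**Figure D4:**
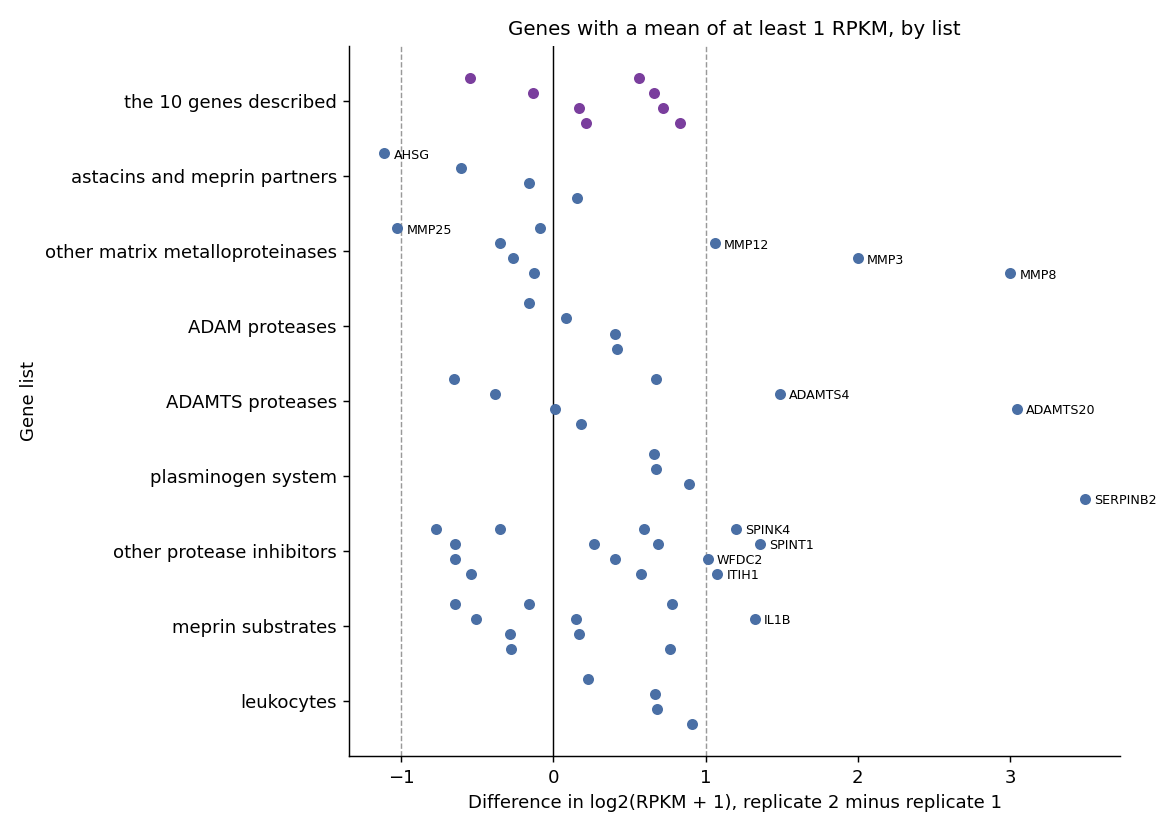
Difference in log2(RPKM + 1), replicate 2 minus replicate 1, on the horizontal axis for each gene averaging 1 RPKM or more, by gene list on the vertical axis. Each point is 1 gene, dashed lines mark 2-fold and genes past it are named. The 8 genes of the top line lie within 2-fold, SERPINB2, ADAMTS20 and MMP8 lie farthest toward replicate 2, and the 4 leukocyte markers lie to the right of 0.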

How the data were processed

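RNA-seq of endometrium from 2 Yorkshire pigs (YK18) was used. Read counting was done by the authors with HTSeq, and RPKM values were deposited for both libraries. The aligner, genome build, filters and strand setting are not given in the sources used here. Accessions, without their versions, were looked up in RefSeq's Sscrofa11.1 table, which gave symbols for 16072 of 38222 mRNA accessions (42.0%). Rows of a gene were summed, which changed no gene of the 10. Reads were recovered from RPKM steps, which gave whole reads for all 25584 transcripts above 0, at lengths up to 20000 nt, with rounding of the last printed digit as tolerance. These steps were tested on simulated data. No count model was fitted and no test was made. Python 3.11.15, pandas 2.3.3, numpy 2.4.6, scipy 1.17.1 and matplotlib 3.10.9 were used.

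The genes and lists were chosen with earlier results of these data known. Beside the 10 genes, the text names cell type markers, direct partners, the top 3 of each list, and genes at least 2-fold apart with a mean of at least 5 RPKM. MMP12, SPINT1, SPINK4, ITIH1, TFPI2, SERPINH1, EEF1A1, FTL, SYN1, SYN3, CEP295NL and CAMK2G were named after their values or positions had been seen. Alternatives were other pseudocounts, filters, scalings, reads in place of RPKM, and each replicate left out. Reads per 1000000 for single levels were chosen after seeing the data. A gene of the plasminogen list is not reported here by name.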

Additional observations from a re-analysis of the deposited data

How the results depend on the processing

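No paired analysis was possible because both libraries are of 1 condition. The ratio of summed proteases to TIMPs, 18.2 in the mean, was 6.26 in recovered reads and 1.45 without MEP1B, and ran from 15.9 to 20.6 with either replicate left out. The ratio of MMPs to TIMPs, 1.44, fell below 1 in recovered reads, at 0.485, and ran from 1.08 to 1.80 with either replicate left out. Recovered reads can be too low by a whole factor in each gene, so the side in excess is not settled. The median level of the 10 genes, 99.2 RPKM, was 23.2 after scaling each library's RPKM to add up to 1000000 and 15.8 in reads per 1000000, both on other scales by construction. The count of genes past 2-fold, 0, was 1 with a pseudocount of 0.1 and 1 with 0.01. It was 0 under both rescalings, without a filter and with a filter at 5 RPKM. Of the differences of single genes, 3 of 8 moved by more than counting error when libraries were rescaled by the median ratio and 1 by the 75th percentile, and 0 turned direction. With 2 pigs the spread is known only roughly. MEP1A, MMP9 and PLAU are limited by few recovered reads, whose true numbers can be higher.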

Other observations

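Among the ADAM proteases, which cut proteins at the cell surface, ADAM9 was at 1901 RPKM in replicate 1 against 2514 in replicate 2. ADAM17, the tumour necrosis factor convertase that TIMP3 inhibits, was at 541.9 and 575.1 RPKM, below TIMP3 at 933.4 and 1085 RPKM. ADAM10 was 2.08 and 1.60 times TIMP3 in RPKM, but 0.273 and 0.210 times in recovered reads. Of 9 ADAM genes 6 had a row and 4 a mean of at least 1 RPKM, and none of the 4 differed 2-fold, against 10.7% of all genes.

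The ADAMTS proteases, secreted enzymes that cut proteoglycans and procollagens, held 2 genes past 2-fold among 7 with a mean of at least 1 RPKM, both higher in replicate 2, against 10.7% of all genes past 2-fold in either direction. ADAMTS20 was at 43.8 and 368.7 RPKM, 8.41 times higher in replicate 2 (6.34 to 11.3), and ADAMTS4, an aggrecanase that TIMP3 inhibits, was at 67.8 and 192.2 RPKM, 2.84 times higher (2.42 to 3.34). ADAMTS9 was at 1499 and 1148 RPKM and ADAMTS1 at 899.8 and 1434 RPKM. ADAMTS2, the procollagen N-proteinase, was at 290.0 and 184.5 RPKM, and SERPINH1, the collagen chaperone HSP47, at 1309 and 766.6 RPKM. Both were higher in replicate 1, as were COL3A1 and 2717 of the 6476 genes. Of the 7 ADAMTS genes, 5 were higher in replicate 2.

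Of 23 other inhibitors 18 had a row and 14 a mean of at least 1 RPKM, with a median difference of 0.49, against 0.07 over all genes. SLPI, a secreted inhibitor of neutrophil elastase, was the highest at 2779 and 4197 RPKM, above MMP2 and each TIMP in both libraries per length. In recovered reads, 3092 and 4392, it was below TIMP3 in both libraries and below MMP2 in replicate 1. WFDC2, of the same protein family, was at 1167 and 2359 RPKM, 2.02 times higher in replicate 2 (1.88 to 2.18). ITIH3, a hyaluronan-binding heavy chain, was at 1715 and 1097 RPKM, and TFPI2 at 446.8 and 590.9 RPKM. SPINT1, SPINK4 and ITIH1 were also past 2-fold toward replicate 2, but rested on 3 and 10, 1 and 3, and 2 and 5 reads. TIMP4 and RECK had no row with a matched accession and were not analysed here. Over all 7 lists, with each gene counted once, 49 genes had a mean of at least 1 RPKM, of which 11 were at least 2-fold higher in replicate 2 and 2 in replicate 1, against 485 and 205 of all 6476 genes (10.7% in either direction).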
